A study of Mus musculus with 4 samples.

Results

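The microRNA gene regions of a Foxp1 ChIP-seq series from mouse mammary epithelium are described here. They were taken from a table of reads per gene by symbol: a name that starts with Mir or Mirlet followed by a digit, host gene names ending in hg left out, and at least 40 reads summed over the 4 libraries. By name 1174 of the 24548 gene regions matched, and 885 of these had 40 or more reads and were tested, among 23128 tested regions in all. The other 289 were not tested, and 210 of them held no read in any library. At the edge of the read minimum stood Mir466f-2 with 40 reads and Mir199a-2 and Mir6375 with 42 each on the tested side, and Mir181c with 39 on the other. The choice used no ratio between libraries, but a region that is high in 1 library reaches the minimum more easily.

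Both cell types came from the mammary glands of wild-type females 10 to 12 weeks old, of a strain that the sample labels spell FBV/N and the series text FVB/N. For basal epithelial cells there was 1 library made with an antibody to Foxp1, a forkhead transcription factor, and 1 library of input DNA made without antibody, and the same pair was made for luminal epithelial cells. No group had a replicate, no control antibody was among the libraries analysed here, and no treatment was given. How many animals were pooled and how the cells were separated was not stated in the sources used here.

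MicroRNAs are short RNAs cut from a hairpin in a longer transcript, first in the nucleus by Drosha with Dgcr8 and then in the cytoplasm by Dicer. Loaded on an Argonaute protein, a microRNA pairs with messenger RNAs mainly through its seed, the bases near its 5′ end, and lowers their translation and stability. Many hairpins lie inside introns of other genes or in clusters cut from 1 transcript, so the promoter that drives a microRNA can be far from its hairpin. In mammary epithelium the miR-200 family is known as a guardian of the epithelial state, miR-205 as a microRNA of basal and stem cells, and miR-21 as a microRNA that rises in many tumours.

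What was measured was the number of DNA reads at each locus, not the level of a microRNA. The mature sequences of the microRNAs that the results turn on are given 5′ to 3′ from RefSeq (GRCm38.p6), with the seed, bases 2 to 8, in capitals. The first 4 belong to regions with more scaled reads in basal ChIP than in basal input.
mmu-miR-21a-5p: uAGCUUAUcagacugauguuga
mmu-miR-203-3p: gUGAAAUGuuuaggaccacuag
mmu-miR-135a-5p: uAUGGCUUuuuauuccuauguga
mmu-miR-125b-5p: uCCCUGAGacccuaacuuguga
The next set belongs to regions with more scaled reads in luminal ChIP than in luminal input.
mmu-miR-17-5p: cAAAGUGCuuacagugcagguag
mmu-miR-3074-5p: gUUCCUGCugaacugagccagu
mmu-miR-99a-5p: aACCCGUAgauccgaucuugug
mmu-miR-133b-3p: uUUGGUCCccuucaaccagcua
The last set shows pairs that share a seed and are compared further on.
mmu-miR-221-3p: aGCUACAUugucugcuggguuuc
mmu-miR-222-3p: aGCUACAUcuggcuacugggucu
mmu-miR-34a-5p: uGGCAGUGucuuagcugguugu
mmu-miR-34b-5p: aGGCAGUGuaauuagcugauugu
mmu-let-7b-5p: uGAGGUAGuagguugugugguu
mmu-let-7f-5p: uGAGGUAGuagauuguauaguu
Mature sequences were matched for 783 of the 885 tested regions. Their 1267 mature sequences held 1082 distinct seeds, and 126 seeds were held by at least 2 tested regions.

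The region counted for each gene is not stated, and its size was read from the inputs, which hold no antibody signal. Among microRNA regions with no other gene start within 8000 bp the median was 322 reads over both inputs (385 regions). With a single start on the same strand within 500 bp the median was 14.5 reads (40 regions), and it was 65 reads at 500 to 1500 bp (29 regions), 126 at 1500 to 3000 bp (24 regions), 217.5 at 3000 to 4000 bp (10 regions) and 317 at 4000 to 5000 bp (14 regions). The input reads thus grew with the distance to the neighbour until about 5 kb, as when each gene is given a window of about that size and reads in the windows of 2 genes are dropped. Of the 289 untested regions 284 had another gene of the table within 5000 bp, as had 758 of the 885 tested ones. Single regions departed from this pattern: Mir8109 held 448 input reads with a start on the opposite strand at 19 bp, and Mir692-2 and Mir683-1 held none with no start within 8000 bp. The window is thus inferred from medians and not known, and a value below may stand for only a piece of it.

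**Figure D1:**
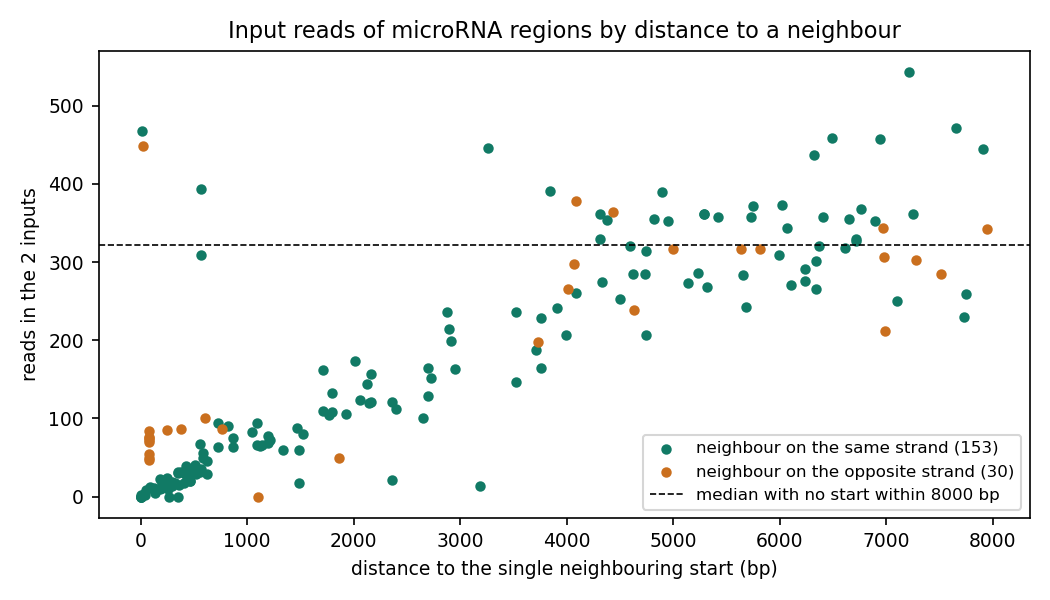
Reads in the 2 inputs (vertical axis) of microRNA regions with 1 neighbouring gene start, against the distance to it in bp (horizontal axis), by the neighbour's strand. The dashed line is the median of 322 reads in regions without such a neighbour; most points rise from near 0 beside a neighbour to that line at about 4000 to 5000 bp, with single points far off, such as 448 reads at 19 bp.

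Reads in gene regions numbered 3080114 to 4201459 per library. Tested microRNA regions had medians of 134 and 127 reads in the ChIP and the input of basal cells and of 116 and 167 in those of luminal cells. Over all tested regions these medians were 160 and 144, and 136 and 192. Reads are written below as ChIP over input, raw, with the basal pair first. Each ratio is ChIP over input after TMM scaling, given on the log2 scale with an exact 99% interval of the 2 counts. A call, higher or lower, needed a ratio of 1.5-fold or more and an interval that excluded no difference. Intervals and calls cover counting error only, compare libraries and not cell populations with replicates, and count PCR copies of 1 molecule as separate reads. Among marker genes of the labelled cell types, 2 of 7 basal markers were called higher in basal ChIP and none in luminal ChIP, and 3 of 8 luminal markers were called higher in luminal ChIP and 1 in basal ChIP. None of 3 endothelial and 3 leukocyte markers was called, while 1 of 3 fibroblast markers was lower in basal ChIP and 1 of 2 adipocyte markers lower in luminal ChIP. Of all tested regions 4.24% were higher and 4.06% lower in basal ChIP, and 1.5% and 2.13% in luminal ChIP. With the basal ratio divided by the luminal ratio, 4 of the 7 basal markers were higher. In that comparison 1 luminal and 1 fibroblast marker were lower. Basal input was higher than luminal input at 1 basal marker and lower at 2 luminal markers. These are DNA libraries, so marker expression cannot be read from them.

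In basal cells Foxp1 ChIP over input was called higher at 20 of the 885 microRNA regions (2.26%) and lower at 61 (6.89%). Over all tested regions the shares were 4.24% higher and 4.06% lower. MicroRNA regions thus held a smaller share of higher calls and a larger share of lower calls than the table as a whole. Their median log2 ratio was -0.13 against -0.01 over all tested regions, and 35.1% of them lay above 0 against 48.4%. Centring on the 1108 olfactory receptor regions, whose own median was -0.21, shifts every region upward alike and so turns the split: 57 microRNA regions were then higher (6.44%) and 16 lower (1.81%), against 12.9% and 1.02% of all tested regions. With intervals widened to the spread seen among those receptor regions, 13 of the 20 higher calls (1.47% of the regions) and 18 of the 61 lower calls (2.03%) stood, against 3.59% and 1.08% of all tested regions.

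**Figure D2:**
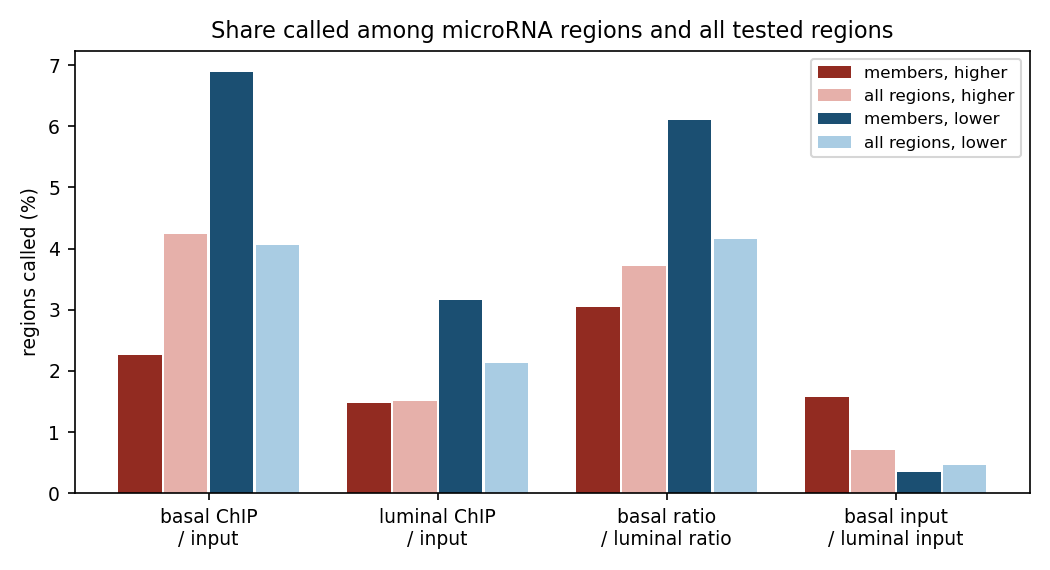
Percentage of regions called higher or lower (vertical axis) among the 885 microRNA regions and among all 23128 tested regions, in the 4 comparisons. In basal ChIP over input 2.26% of microRNA regions are higher and 6.89% lower, against 4.24% and 4.06% of all regions.

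The highest lower bound in basal cells belonged to Mir21a, the source of miR-21, which is abundant in epithelia and targets, among others, Pdcd4, a gene for an inhibitor of translation initiation. It lies at chr11:86584067-86584158 (GRCm38) on the minus strand, inside the span of Vmp1, a gene for an autophagy protein. Its region had 582 reads over 222 in basal cells and 569 over 347 in luminal cells. Both ChIP libraries were above both inputs before and after scaling. Its log2 ratio was 1.15 in basal cells (0.86 to 1.46) and 1.16 in luminal cells (0.90 to 1.42), and the ratio of ratios was -0.01 (-0.39 to 0.38). Mir21c, the other tested region with the seed AGCUUAU, had 168 over 167 and 145 over 240 reads and was not called, at -0.23 and -0.28.

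Mir7687, a hairpin inside Gse1 on chromosome 8, was the only other region called higher in both cell types. After scaling it had 435.78 reads over 198.17 in basal cells and 409.33 over 245.44 in luminal cells, so both ChIP libraries were above both inputs. The log2 ratio was 1.14 in basal cells (0.81 to 1.48) and 0.74 in luminal cells (0.44 to 1.03). Both calls at Mir7687, like both at Mir21a, stood with the widened interval.

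Mir203, which restrains epidermal stem cells by acting on the basal transcription factor p63, lies outside other genes on chromosome 12, and Kif26a has the nearest start at 15328 bp. The region had 251 reads over 125 in basal cells and 240 over 249 in luminal cells. The scaled ChIP libraries were both above their inputs, with log2 ratios of 0.77 in basal cells (0.36 to 1.19) and 0.39 in luminal cells (0.05 to 0.73), and only the first was called. The basal input was itself lower than the luminal input, at -0.55 (-0.97 to -0.14). With the inputs summed as background the basal call was lost and luminal ChIP was called higher instead, just above the limit.

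Mir135b and Mir135a-1, 2 loci of the miR-135 family, whose targets include the tumour suppressor Apc of the Wnt pathway, were called in basal ChIP. Mir135b, inside Lemd1 on chromosome 1, had 326 reads over 163 in basal cells and 148 over 192 in luminal cells. Basal ChIP stood apart from the other libraries, at log2 0.76 in basal cells (0.40 to 1.13) against 0.07 in luminal cells (-0.35 to 0.48), and the difference of 0.69 (0.15 to 1.23) was called. Mir135a-1, on chromosome 9 and 324 bp from the start of D030055H07Rik, had 183 over 99 and 147 over 166 reads. Its basal log2 ratio was 0.65 (0.18 to 1.13), and this call was lost with the widened interval and with summed inputs. Mir135a-2, which gives the same mature miR-135a-5p from chromosome 10, had 150 over 153 and 115 over 168 reads and was not called, at -0.27 and -0.10.

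Mir125b-1, which makes miR-125b and lies with Mir100 in Mir100hg on chromosome 9 on the plus strand, had 420 reads over 237 in basal cells and 156 over 199 in luminal cells. Its basal log2 ratio was 0.59 (0.28 to 0.90), at the edge of the 1.5-fold limit, and it was lost with total-count scaling. Scaled reads were higher in both basal libraries than in the luminal ones, and basal input exceeded luminal input by 0.70 (0.34 to 1.06). Mir125b-2, with the same mature miR-125b-5p on chromosome 16, had 308 over 219 and 258 over 290 reads and was not called in either cell type, at 0.26 and 0.28. Mir100, in the same host gene but more than 8000 bp from Mir125b-1, was not called either, at -0.15 in basal and 0.10 in luminal cells.

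The other regions called higher in basal ChIP included Mir3109 inside Anxa2, a gene for a calcium-dependent membrane-binding protein, with 411 reads over 174 in basal and 257 over 272 in luminal cells. Its log2 ratios were 1.003 and 0.36, and the difference of 0.64 (0.17 to 1.10) was called. Mir6387 inside Trib2, a pseudokinase gene, had 315 over 158 in basal and 231 over 247 in luminal cells, and Mir8120 had 366 over 194 and 204 over 263. Mir6945 inside Pdlim7, a gene for a cytoskeletal adaptor, had 296 over 161 and 177 over 211. Mir7678 inside Slpi, a gene for a secreted protease inhibitor, had 125 over 66 and 48 over 78. Mir760, Mir6236, Mir3072, Mir7046 and Mir466o stood between 0.60 and 0.78. With Mir3472, Mir466d and the regions with few reads below they made up the rest of this group, and the 20 basal log2 ratios ran from 0.59 to 2.20 with a median of 0.74. All the names of this group that the naming rule did not select were added after their values were seen.

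The 2 largest ratios in basal ChIP were in regions with few reads and had wide intervals. Mir1956, 230 bp from the start of Eif4e, a gene for the cap-binding translation factor, had 27 reads over 5 in basal cells and 22 over 19 in luminal cells. The single low library was the basal input, and the basal log2 ratio of 2.20 had an interval from 0.45 to 4.53. Mir574, 243 bp from the start of Fam114a1, had 27 over 6 and 4 over 18 reads, with 1.93 in basal cells (0.30 to 4.03) and -1.73 in luminal cells (-4.46 to 0.27). Neither basal call stood with the widened interval.

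**Figure D3:**
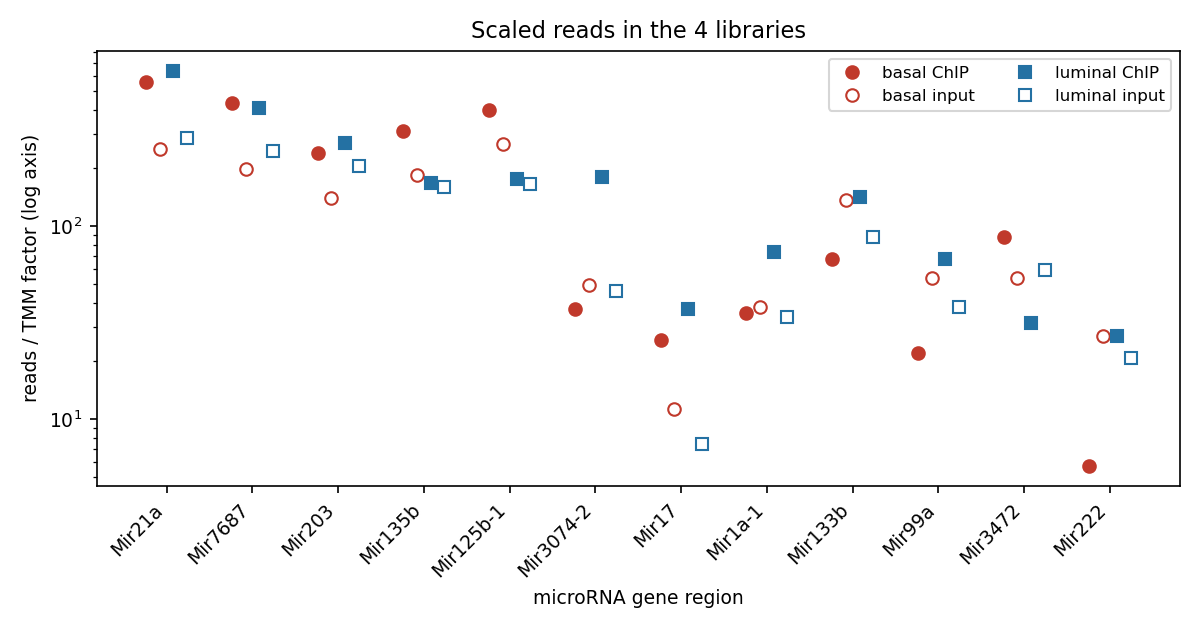
Reads divided by the TMM factor (vertical axis, log scale) in each of the 4 libraries for 12 microRNA regions (horizontal axis); filled symbols are Foxp1 ChIP and open symbols input, circles basal and squares luminal. At Mir21a and Mir7687 both filled symbols lie above both open ones, and at Mir3074-2 only the luminal ChIP stands apart.

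Regions called lower in basal ChIP were led by Mir8102, which had 5 reads over 24 in basal cells and 26 over 29 in luminal cells and a basal log2 ratio of -2.50 (-4.85 to -0.73). Mir222 had 6 over 24 and 24 over 25 reads, and its basal ratio was -2.24 (-4.35 to -0.57). In both regions a single library, the basal ChIP, was low, and neither call stood with the widened interval. Mir7241 inside C2cd4b, with 26 over 59 and 49 over 74 reads, was lower at -1.42 (-2.37 to -0.53), and Mir6964 inside C2cd2, with 73 over 125 and 127 over 171 reads, at -1.01 (-1.59 to -0.46). The 61 lower ratios had a median of -0.74, so most were close to the limit.

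In luminal cells Foxp1 ChIP over input was called higher at 13 of the 885 regions (1.47%) and lower at 28 (3.16%), against 1.5% and 2.13% of all tested regions. The share of higher calls was near that of the whole table. The median log2 ratio was -0.05 against 0.00 over all tested regions, and 42.1% lay above 0 against 49.6%. Centring on the olfactory receptors gave 19 higher and 19 lower (2.15% each), against 2.49% and 1.31% of all tested regions. With the widened interval 9 of the 13 higher calls (1.02%) and 7 of the 28 lower calls (0.791%) stood, against 1.13% and 0.553%.

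The largest luminal ratio with more than 100 reads in ChIP was at Mir3074-2. It had 39 reads over 44 in basal cells and 160 over 56 in luminal cells. Only luminal ChIP was high. The log2 ratio was 1.96 in luminal cells (1.38 to 2.57) and -0.41 in basal cells (-1.27 to 0.44), and the difference of -2.36 (-3.35 to -1.36) was called also with the widened interval. Mir3074-1, which gives the same miR-3074-5p from chromosome 13, had 71 over 38 and 26 over 48 reads and was not called, at 0.67 in basal and -0.44 in luminal cells.

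The Mir3074-2 hairpin lies on the minus strand of chromosome 8 at 84208825 to 84208907, opposite the hairpin of Mir24-2 at 84208815 to 84208921. Both are shown 5′ to 3′ from RefSeq, and the capitals in Mir24-2, its bases 11 to 93, mark the stretch whose reverse complement is the whole Mir3074-2 hairpin.
Mir24-2: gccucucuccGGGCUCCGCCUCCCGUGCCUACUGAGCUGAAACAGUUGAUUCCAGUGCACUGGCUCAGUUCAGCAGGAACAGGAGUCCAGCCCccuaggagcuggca
Mir3074-2: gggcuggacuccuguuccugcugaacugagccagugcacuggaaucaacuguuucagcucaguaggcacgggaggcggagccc
Mir24-2 is the last of the cluster Mir23a, Mir27a and Mir24-2, which is cut from 1 transcript and acts on growth and blood cell formation. Neither Mir24-2 nor Mir27a held a read in any library and Mir23a held 33 in all, so none of the 3 was tested. The reads listed under Mir3074-2 are thus the only tested value of this locus, and which bases of the locus they cover is not known.

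Mir17, the first hairpin of the Mir17 to Mir92-1 cluster, which promotes cell cycle entry and blocks Bim, had 27 reads over 10 in basal cells and 33 over 9 in luminal cells. Both ChIP libraries were above both inputs. The luminal log2 ratio of 2.32 (0.93 to 3.98) was called, and the basal ratio of 1.20 (-0.19 to 2.80) was not. The interval of the difference, -3.03 to 0.81, spans 0. Of the 5 other hairpins of this cluster Mir18, Mir19a, Mir20a and Mir19b-1 held no read and Mir92-1 held 5, so 1 of the 6 hairpins of the locus was tested.

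Among the remaining luminal calls, Mir1a-1, a muscle microRNA reported to act on Foxp1 messenger RNA in other tissues, had 37 reads over 34 in basal cells and 65 over 41 in luminal cells. Its luminal log2 ratio was 1.11 (0.35 to 1.90) and its basal ratio -0.11 (-1.04 to 0.82). Mir7048 inside Dedd2 had 103 reads in luminal ChIP over 77 in luminal input (0.86), Mir500 inside Clcn5 100 over 78 (0.80) and Mir1195 223 over 187 (0.70). Mir1893 inside Epc1 on chromosome 18 had 347 over 309 and was just above the limit, at 0.61 (0.32 to 0.91), with a basal ratio of 0.54 that was not called.

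Lower in luminal ChIP were Mir133a-2, Mir34b, Mir7088, Mir6982, Mir3471-1, Mir7018 and 22 others, with log2 ratios from -1.83 to -0.60. Mir133a-2 had 138 reads over 100 in basal cells and 56 over 140 in luminal cells. Luminal ChIP was the low library, at -0.88 (-1.50 to -0.29), against 0.23 in basal cells. Mir7018 inside Hspg2, the gene for the basement membrane proteoglycan perlecan, had 207 over 121 and 69 over 165 reads. It stood at -0.81 in luminal cells (-1.37 to -0.28) and 0.54 in basal cells, and the difference of 1.34 (0.66 to 2.02) was called also with the widened interval. Mir34b, a p53 target, had 21 over 27 and 6 over 29 reads, and its luminal ratio of -1.83 (-3.92 to -0.21) was lost with the widened interval.

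**Figure D4:**
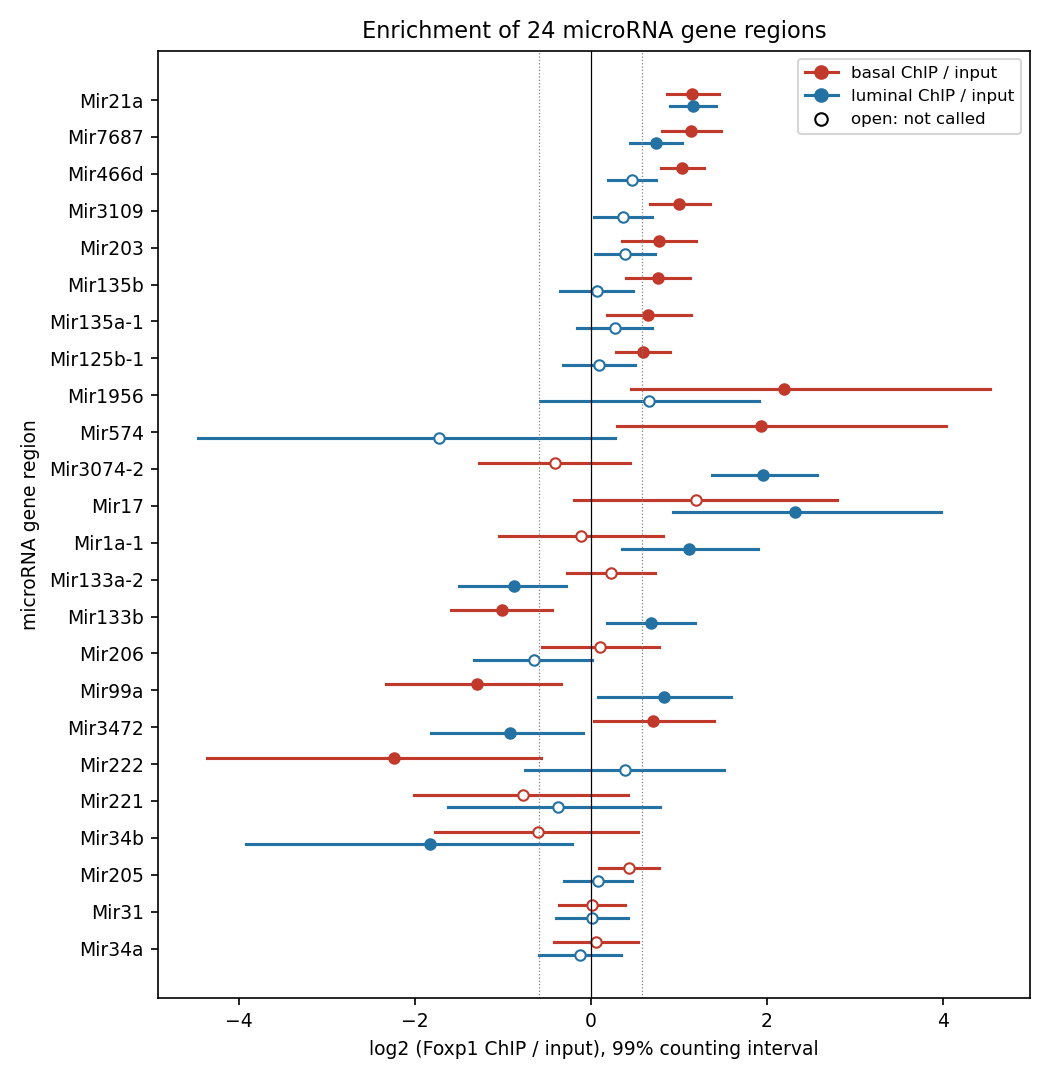
Log2 ratio of Foxp1 ChIP over input with its 99% counting interval (horizontal axis) for 24 microRNA regions (vertical axis), basal in red and luminal in blue; filled points were called, open points were not, and dotted lines mark 1.5-fold. Mir21a lies at 1.15 and 1.16 with narrow intervals, while Mir1956, Mir574, Mir222 and Mir34b have wide ones.

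Whether a region differed between the cell types was asked with the ratio of ratios, basal over luminal. It was called higher in basal cells at 27 of the 885 regions (3.05%) and lower at 54 (6.1%), against 3.72% and 4.16% of all tested regions. With the widened interval 4 of the 27 (0.452%) and 8 of the 54 (0.904%) stood, against 0.895% and 0.558% of all tested regions. Centring on the olfactory receptors gave 57 higher (6.44%) and 22 lower (2.49%), against 8.68% and 1.79%. The 2 inputs compared with each other by the same rule, which hold no antibody signal, gave 14 higher in basal (1.58%) and 3 lower (0.339%), against 0.709% and 0.463% of all tested regions. Centring on the olfactory receptors, which here shifts every region downward alike, gave none higher and 27 lower (3.05%), against 0.0562% and 3.89% of all tested regions.

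In all, 8 regions were called in both cell types. Mir21a and Mir7687 were higher in both. Mir344d-3, Mir6966 and Mir7668 were lower in both. Mir344d-3 had 106 over 165 and 79 over 171 reads, at -0.88 in basal and -0.67 in luminal cells. Mir6966 had 79 over 119 and 78 over 161 reads, at -0.83 and -0.60, and Mir7668, which lies 23 bp from the start of Zfp27, had 17 over 36 and 11 over 41 reads, at -1.32 and -1.45. Mir99a, Mir133b and Mir3472 were called in opposite directions, and 771 regions were called in neither. Across the 885 regions the 2 sets of log2 ratios had a Pearson r of 0.10 and a Spearman rho of 0.12, a description over points that share libraries and depth; over the 610 regions with 250 or more input reads r was 0.25 and rho 0.20, and over all 23128 tested regions r was 0.21 and rho 0.25.

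Mir99a, which targets Mtor and insulin-like growth factor receptor messages, had 23 reads over 48 in basal cells and 60 over 46 in luminal cells. It was lower in basal ChIP, at -1.30 (-2.33 to -0.34), and higher in luminal ChIP, at 0.83 (0.08 to 1.59). The difference of -2.11 (-3.29 to -0.92) was called also with the widened interval, although neither single ratio was. Its cluster neighbour Mirlet7c-1 was not called in either cell type, at -0.24 and -0.07, and neither was Mir100, which shares the seed ACCCGUA. The region of the host gene Mir99ahg, outside the set, was called the other way in the difference, at 0.73.

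Mir133b, a skeletal muscle microRNA, had 71 reads over 121 in basal cells and 126 over 107 in luminal cells. The basal ratio of -1.01 (-1.59 to -0.44) and the luminal ratio of 0.68 (0.18 to 1.18) were both called. The inputs also differed here, basal over luminal at 0.62 (0.12 to 1.13), and the luminal call was lost with the inputs summed. Mir3472 inside Rtl4 on the X chromosome had 92 over 48 and 28 over 72 reads and went the other way, with 0.70 in basal (0.03 to 1.40) and -0.92 in luminal cells (-1.82 to -0.08). Its difference of 1.60 (0.54 to 2.65) was called also with the widened interval, although neither single ratio was.

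**Figure D5:**
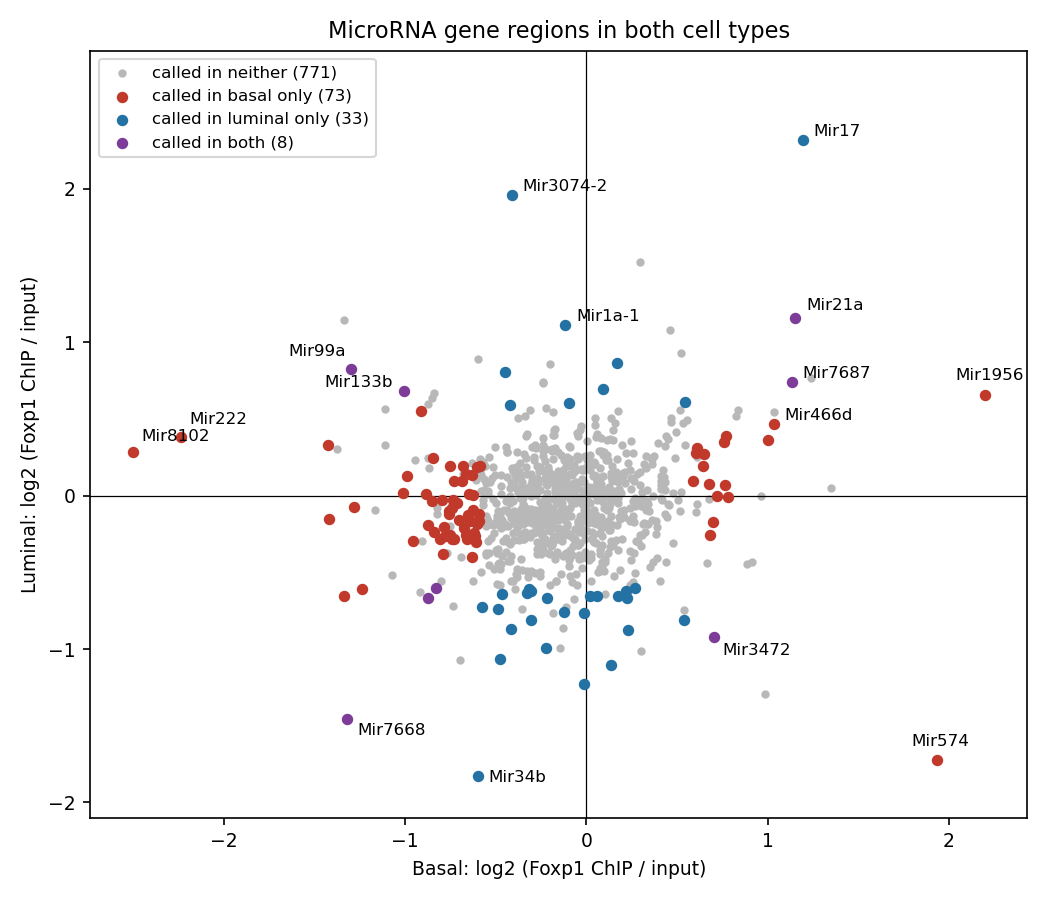
Log2 ratio of Foxp1 ChIP over input in basal cells (horizontal axis) and in luminal cells (vertical axis) for 885 microRNA regions, 1 point each, coloured by where the region was called. Most points lie around 0 on both axes, 771 were called in neither cell type, and Mir21a and Mir7687 are called higher in both.

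There were 67 pairs of neighbouring tested regions within 10000 bp. With so small a share of all microRNA regions called, the counts of pairs describe these loci and nothing is read from them. In basal cells 13 pairs held a called region, none had both called in the same direction and 1 had them called in opposite directions, Mir466d and Mir466h. In luminal cells 11 pairs held a called region, none was called in the same direction in both and 2 in opposite directions. The signs were the same in 37 basal and 30 luminal pairs. One opposite luminal pair was Mir1a-1 and Mir133a-2, 9331 bp apart in the muscle transcript Mir1a-1hg, at 1.11 and -0.88, and the other was Mir344e and Mir344d-3, 9288 bp apart, at 0.59 and -0.67. At the second muscle locus, in Lincmd1, Mir206 stood at 0.10 in basal and -0.64 in luminal cells, 3759 bp from Mir133b, and was not called.

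Among the 126 seeds held by several tested regions in the matched mature sequences, 1 had 2 regions called in the same direction over input. This was AGUGCAA, with Mir301 at -0.68 and Mir721 at -0.62 both lower in basal ChIP, among 6 tested regions with that seed, named after their values were seen. In the matched sequences no seed had 2 regions called higher in either cell type or 2 called lower in luminal ChIP. For Mir135b these sequences hold only the 3p form. It was thus not counted with Mir135a-1, although both were called higher in basal ChIP. At the shares of regions called nothing is read from these counts. Mir221 and Mir222, which target the cell cycle inhibitor p27, share the seed GCUACAU and lie 599 bp apart. Mir221 had 18 over 26 and 17 over 30 reads and was not called at -0.77 in basal cells, where Mir222 was called at -2.24. Mir34a had 142 over 116 and 112 over 166 reads and stood at 0.06 and -0.12, not called, where Mir34b with the same seed GGCAGUG was called lower in luminal ChIP. The seed GAGGUAG of let-7, which restrains Lin28 and Ras, was held by 10 tested regions in the matched sequences. None of the 10 was called over input in either cell type. Mirlet7a-2 of the same family was tested but is not in this count, and it was not called either, at -0.35 and -0.02. Among the 10, Mirlet7b and Mirlet7f-2 were called in the difference at -1.47 and -1.46. They had only 21 to 34 and 18 to 39 reads per library, and neither stood with the widened interval.

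Calls at the microRNAs best known in the mammary gland are a description, to be set beside the shares of all tested regions. These were 4.24% higher and 4.06% lower in basal ChIP, and 1.5% and 2.13% in luminal ChIP. Of 26 regions listed for mammary epithelium and the miR-200 family 21 were tested. Mir203 and Mir21a were called higher in basal ChIP, Mir365-1 was called lower, and Mir21a alone was called in luminal ChIP. The list's median was 0.05 in basal and 0.04 in luminal cells, against -0.01 and 0.00 over all tested regions. Mir200a, Mir200b and Mir429, which form 1 cluster on chromosome 4, held no read in any library and were not tested. The second miR-200 cluster was measured with few reads, 28 over 14 and 17 over 18 at Mir141 and 11 over 17 and 20 over 24 at Mir200c, and neither was called.

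Mir205, a microRNA of basal epithelium, had 324 reads over 204 in basal cells and 168 over 216 in luminal cells. After scaling both basal libraries were above their luminal counterparts, and basal over luminal input stood at 0.36. The basal ratio of 0.43 (0.10 to 0.77) was below the 1.5-fold limit, and the luminal ratio was 0.08. With the inputs summed as background the basal ratio passed the limit and was called, so this result depends on the input used. Mir31, which is high in mammary stem cells, stood at 0.01 in both, with intervals of -0.36 to 0.38 and -0.40 to 0.42. Mir146, which damps NF-kB signalling, stood at 0.25 and 0.12, and Mir22 at 0.00 and -0.23. Of 18 regions listed for basal, myoepithelial and stem cells 14 were tested. In basal ChIP 1 was higher (Mir125b-1) and 2 lower (Mir222 and Mir99a), and in luminal ChIP 1 was higher (Mir99a). Over all tested regions the shares were 4.24% higher and 4.06% lower in basal ChIP, and 1.5% and 2.13% in luminal ChIP.

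The counts in the shorter lists are given as a description, to be set beside the shares of all tested regions above (4.24% and 4.06% in basal, 1.5% and 2.13% in luminal cells). All 9 heart and skeletal muscle regions were tested: 1 was lower in basal ChIP (Mir133b), 2 were higher in luminal ChIP (Mir1a-1 and Mir133b) and 1 lower (Mir133a-2). Of 6 tested regions reported to regulate Foxp1, among them Mir34a, only Mir1a-1 was called. Of 16 tested neural regions Mir137 was lower in basal ChIP, and of 6 Hox-linked regions Mir196b, both named after their values were seen. None of 6 tested regions listed for other cell types was called over input in either cell type. This list covers blood and endothelial cells and also holds Mir122, which belongs to neither. In this list Mir126a had 15 over 23 and 48 over 42 reads and was called in the difference at -1.47 (-2.92 to -0.03), not with the widened interval. None of 12 tested regions for growth control and NF-kB was called, and of 15 regions of the Mir17 cluster and its relatives only Mir17 itself could be tested.

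The largest family by number was the Mir297, Mir466, Mir467 and Mir669 group, most of it in an intron of Sfmbt2, with near-identical copies among which reads cannot be assigned with certainty. Of 81 regions 57 held no read and 24 were tested, of which 2 were higher (Mir466d and Mir466o) and 2 lower (Mir466h and Mir467f) in basal ChIP and 1 was lower in luminal ChIP (Mir297c). Mir466d had the most reads of any tested microRNA region in basal ChIP, 800, over 331 in its input, and 386 over 380 in luminal cells. Its basal log2 ratio was 1.04 (0.79 to 1.29) and its luminal ratio 0.47 (0.19 to 0.74). Mir466h, 2924 bp away, had 104 over 175 and 166 over 207 reads and was lower in basal ChIP, at -0.99 (-1.46 to -0.52).

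Position was set beside the calls as a description. In basal ChIP 4.24% of all tested regions were higher and 4.06% lower, and 2.26% and 6.89% of the microRNA regions. Of the 100 regions with a gene start of the RefSeq promoter table within 2500 bp, 8 were higher and 4 lower in basal ChIP, and the median was 0.02 on the log2 scale. At 2500 to 10000 bp there were 4 higher and 12 lower among 206 regions (median -0.10), at 10000 to 50000 bp 5 and 26 among 355 (-0.15), and beyond 50000 bp 3 and 15 among 193 (-0.15). The regions near a start had a median of 46.5 reads in basal input against 127 over all tested microRNA regions. In luminal cells the medians of the 4 classes ran from -0.10 to -0.05. Of the 885 regions 714 lay inside the span of another gene. They held 18 of the 20 basal higher calls and 46 of the 61 lower calls. The 169 outside such spans held 2 and 14, and nothing is read from this split.

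Base composition was also set beside the calls as a description, by the GC content of the short hairpin. That of the counted region was not measured. When hairpins were split in 3 classes by GC content, the lowest, up to 47.53%, held 249 regions. Its basal median was -0.21, with 4 regions higher and 21 lower. The middle class of 251 regions had a median of -0.105 with 4 higher and 18 lower. The highest, above 55.38%, had a median of -0.06 with 9 higher and 11 lower among 247 regions. Of all tested regions 4.24% were higher and 4.06% lower in basal ChIP. Luminal medians were -0.06 in the lowest and -0.09 in the highest class, and basal over luminal input had medians of 0.08 and -0.01 there. GC content was known for 747 of the 885 hairpins, and its part in the result was not tested.

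Forkhead proteins bind DNA at short motifs rich in A and T. The core motif TGTTTAC was searched together with its variant TGTTTAT. The form with an A as second base, TATTTAC, was added together with its own variant TATTTAT. All 4 were searched on both strands in windows from 250 bases before to 50 after each gene start. At least 1 of the 4 was in 15% of 32851 windows, in 10 of the 98 distinct windows nearest to the 100 microRNA regions with a start within 2500 bp, and in 1 of the 8 whose microRNA region was higher in basal ChIP. That window belongs to D030055H07Rik beside Mir135a-1, chr9:106153550-106153849 on the plus strand (GRCm38.p6), and is shown with the motif TGTTTAC in capitals.
D030055H07Rik window: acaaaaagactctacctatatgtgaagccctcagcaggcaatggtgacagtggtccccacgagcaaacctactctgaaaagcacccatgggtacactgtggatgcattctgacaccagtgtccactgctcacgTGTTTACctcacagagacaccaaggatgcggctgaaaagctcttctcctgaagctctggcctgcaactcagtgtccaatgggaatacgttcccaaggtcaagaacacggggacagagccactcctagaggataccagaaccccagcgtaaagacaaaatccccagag
TGTTTAC alone was in 3.65% of all windows. The match is a description of these letters.

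The genes that process microRNAs and those that host them are no members of the set and were read from the same table. Of 22 tested processing genes 2 were higher in basal ChIP. Srrt, which links the cap-binding complex to Drosha, had 300 reads over 148 (log2 0.78), and Tnrc6b, an Argonaute partner in silencing, had 351 over 197 (0.60). Gemin4 was lower in luminal ChIP, with 14 over 59 (-1.63). Dicer1 at 0.15 and 0.30 and Dgcr8 at 0.42 and -0.05 were not called. Of 8 tested host genes Mirc35hg was higher in basal ChIP, with 91 reads over 32 (1.27), and none was called in luminal ChIP. In the difference between cell types Srrt (0.62) and Mir99ahg (0.73) were called, both higher in basal cells. Mir99ahg had 303 over 217 and 149 over 285 reads. The shares of all tested regions were 4.24% higher and 4.06% lower in basal ChIP, 1.5% and 2.13% in luminal ChIP, and 3.72% and 4.16% in the difference.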

How the data were processed

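Foxp1 ChIP and input DNA were sequenced as single reads of 75 to 85 bp, per the labels' protocols, in 1 library per cell type and kind. The authors deposited raw counts of reads per gene, made with featureCounts on mm10 per the submitters' processing notes; the aligner, the versions, the handling of duplicates and the counted region were not stated in the sources used here. The per-sample files and the series table held equal values for 24548 of 24548 genes. TMM factors (edgeR 4.0.16, R 4.3.3) came from all 23128 regions with 40 or more reads. Ratios have exact Clopper-Pearson 99% intervals, and 0.5 was added to both counts only where 1 was 0; the ratio of ratios has a normal interval on the log scale from the 4 counts plus 0.5 (Python 3.11.15, scipy 1.17.1). With 1 library per group no p-value is given. Positions, hairpins, mature sequences and promoter windows are RefSeq's (GRCm38.p6), positions matching 1172 of the 1174 microRNA symbols; neither sequence table is complete.

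The microRNA set, the gene lists and the rule for names were chosen with earlier results of these data known. The rule names, per cell type, 10 called regions ranked by lower bound and 6 ranked from the other end by upper bound, 6 at each end for the difference and for the inputs, every region called in both cell types, the extremes of each list and a fixed set. Names outside it were added after their values were seen. Alternatives were total-count and DESeq2 1.42.0 scaling, centring on olfactory receptors, no minimum and a minimum of 200 reads, summed inputs, a widened interval, a 95% interval, a 2-fold limit, and only regions with no other gene within 6000 bp.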

Additional observations from a re-analysis of the deposited data

Results flagged for a closer look

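The microRNA regions below were picked out because the enrichment itself differed between the cell types: the 99% interval of the ratio of ratios, basal over luminal, excluded no difference at 1.5-fold or more. With 1 library per group this is a difference between 4 libraries, counting error only, and no cause was tested. Of all tested regions 3.72% were called higher and 4.16% lower in this comparison. Differences are log2 values. Of the 81 regions called in this comparison the 29 that the naming rule selects are listed.

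Lower in basal than in luminal cells and called also with the widened interval were 8 regions, of which the rule selects 6: Mir3074-2 at -2.36, Mir99a at -2.11, Mir133b at -1.68, Mir500 at -1.25, Mir466h at -1.11 and Mir344e at -1.01. Not called with the widened interval were Mir8102 at -2.68, Mir222 at -2.54, Mirlet7b at -1.47, Mir126a at -1.47, Mirlet7f-2 at -1.46, Mir7241 at -1.26, Mir1a-1 at -1.22 and Mir6964 at -1.03, and the same held for Mir879 at -0.88, Mir124a-2 at -0.75, Mir6410 at -0.70, Mir101c at -0.67 and Mir1195 at -0.61.

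Higher in basal than in luminal cells and called also with the widened interval were Mir3472 at 1.60, Mir7018 at 1.34, Mir6982 at 1.22 and Mir466p at 0.81. Not called with it were Mir574 at 3.44, which rests on 27, 6, 4 and 18 reads, and Mir133a-2 at 1.10, Mir3471-1 at 0.76, Mir135b at 0.69, Mir3109 at 0.64 and Mir8120 at 0.60.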

How the results depend on the processing

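Every group had 1 library, so no library could be left out. No paired analysis was possible because no group had replicates. DESeq2 scaling, total counts, no minimum and a minimum of 200 reads kept every count of calls within 1.5 times of the main one. Centring on the olfactory receptors gave 57 higher and 16 lower in basal cells, 57 and 22 for the difference, and 0 and 27 between the inputs. It moved the share of higher calls among all calls from 24.7% to 78.1% in basal and from 31.7% to 50% in luminal cells, and the median of all tested regions in basal cells to 0.20; total counts moved these shares to 14.4% and 20.8%. With summed inputs the shared background cancels, so the difference is then basal ChIP over luminal ChIP without an input. In that form 45 were higher. The widened interval left 13 higher and 18 lower in basal cells, 7 lower in luminal cells, and 4 and 8 for the difference. The 95% interval gave 8 lower between the inputs. The 2-fold limit left 6 and 11 in basal, 4 and 5 in luminal cells, 6 and 19 for the difference and 2 and 1 between the inputs. The 123 regions with no other gene within 6000 bp held 2 and 10, 1 and 3, 2 and 7, and 2 and 0 in the same order. Fewer regions were tested there. Shares of all tested regions were computed only for the main setting, the receptor centring and the widened interval. The counts under the other alternatives thus do not tell whether microRNA regions differed from the whole table. Of the results for named regions 1 changed direction: the difference at Mir101c, -0.67, became 0.0001 with summed inputs, where it compares the ChIP libraries alone. Of 87 calls at named regions 48 stood with the widened interval, 79 with total counts, 86 with DESeq2 scaling and 70 with the receptor centring, and 63 of 76 with summed inputs. Calls were also gained at named regions. There were 19 new ones with summed inputs, 10 with the receptor centring, 12 with the 95% interval, 3 with total counts and 1 with the minimum of 200 reads.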

Other observations

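The inputs, which were made without antibody, also differed at some microRNA regions. Mir7221 and Mir7222, 2 neighbouring hairpins on chromosome 2 near Chst1, had 30 and 34 reads in basal input against 82 and 82 in luminal input. Basal over luminal input was -1.004 (-1.87 to -0.21) at Mir7221 and -0.82 (-1.64 to -0.06) at Mir7222. Their basal ChIP held 54 and 61 reads and neither was called over input. Mir3105 inside Shank2 was the only other region lower in basal input, with 115 reads against 253 at -0.69 (-1.13 to -0.27). Higher in basal input were among others Mir344e at 0.77, Mir378c at 0.74, Mir879 at 0.71, Mir125b-1 at 0.70 and Mir101c at 0.67, none of which was called after centring on the olfactory receptors.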
